A study of Mus musculus with 16 samples.

Results

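Ovaries of germ-free (GF) mice, which are raised without any microbes, were compared with ovaries of conventionally raised (CV) mice, which carry a gut microbiota, across the 18095 expressed genes of a table of 38087 genes. The 9 ovary libraries, of 16 libraries in all, were chosen by their labels: 4 CV (CV1 to CV4) and 5 GF (GF1 to GF5). Both groups are labelled as C57BL/6j females of 15 to 16 weeks, fed ad libitum and sampled 2 to 4 hours after lights on, and the GF status is the only labelled difference. The other libraries of the series are testes and were not used. No label gives the stage of the oestrous cycle, the colony, the diet beyond free feeding, a batch, or how many ovaries or animals went into a library. The p-values therefore measure the spread between these libraries, which may be technical.

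The ovary holds oocytes inside follicles. Granulosa cells of the follicle make oestradiol, inhibin and anti-Müllerian hormone, and theca cells around it make the androgens that granulosa cells convert. After ovulation the follicle becomes a corpus luteum, whose luteal cells make progesterone from cholesterol until the body regresses, so follicle, ovulation and luteal genes all move with the cycle in a normal ovary. A GF mouse has no gut bacteria and is known for a gut immune system that makes very little immunoglobulin A.

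Libraries held 12912251 to 15141027 counts in CV and 13294039 to 15907297 in GF, and 24118 to 24853 genes had a count in a library. Levels are given as CPM, a gene's counts scaled to a common library size by TMM, edgeR's trimmed-mean method. Defining genes of the labelled tissue were present: 20 of 20 granulosa, 12 of 12 theca and 26 of 27 oocyte genes of the lists used here passed the filter on low counts. Of 4 Y-linked genes, Ddx3y had 3 counts and Uty 1 over the 9 libraries, and Eif2s3y and Kdm5d had 0. Per kilobase of exon, the most abundant named protein-coding RNAs were Eef1a1, a translation factor, at 2425 CPM per kb and Hsd3b1, the enzyme that makes progesterone, at 2159 CPM per kb. Next came Actb at 1021, Rplp1 at 938, the oviduct secretory glycoprotein gene Ovgp1 at 795 and the inhibin subunit Inha at 771 CPM per kb. The biological coefficient of variation was 18.5%. CV2 and GF5 stood apart from the rest in genes of mucus-secreting epithelium, as given below.

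Few genes differed between GF and CV ovaries, and those that did sat largely on 1 chromosome. At an adjusted p under 0.05 (edgeR quasi-likelihood F test, Benjamini-Hochberg), 32 genes were called, 0.177% of those tested. Of these 20 were higher in GF (0.111%) and 12 were lower (0.0663%). Chromosome 13 held 20 of the 32, with 14 higher and 6 lower, among 682 tested genes. Chromosomes 1, 14 and 17 held 2 each, chromosomes 4, 12 and Y 1 each, and 3 called genes had no position in the annotation. Of the 32, 28 differed by more than 1 on the log2 scale. For all 32 the highest library of one group lay below the lowest of the other, against 2.72% of all genes tested. This separation largely follows from the test that called them in the same libraries, and is no further support. Whether both groups came from 1 colony is not given in the labels, so a difference between colonies cannot be told apart from one between GF and CV ovaries.

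**Figure D1:**
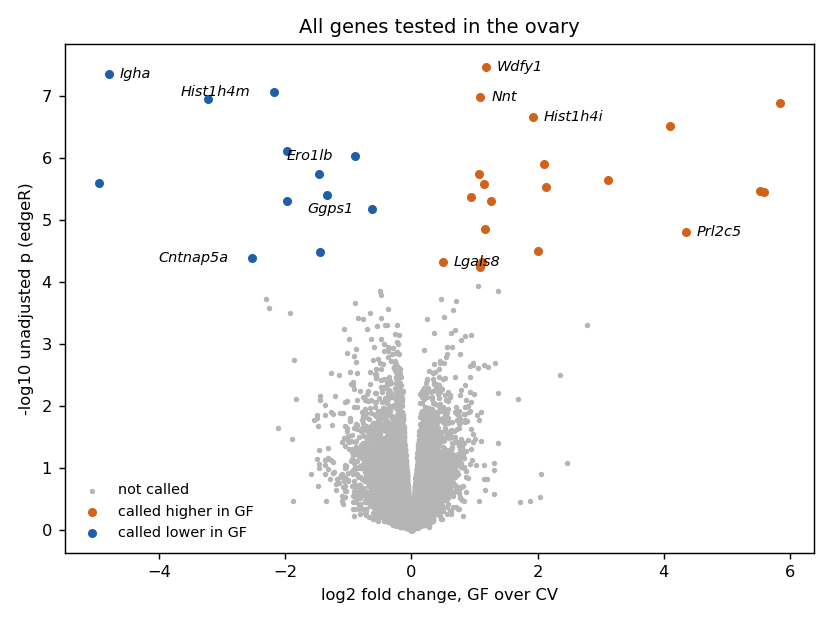
Each point is 1 of the 18095 genes tested, with the log2 fold change of GF over CV on the x axis and -log10 of the unadjusted edgeR p on the y axis; called genes are coloured by direction and some are named. The 20 called higher and 12 called lower genes lie above a dense cloud of uncalled genes centred on 0.

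For most genes the difference between the groups was small. The median absolute log2 difference was 0.0964, and 81.7% of genes differed by less than 0.25 and 94.7% by less than 0.5. The median standard error (SE) was 0.128, and 78.5% of genes had an SE under 0.25. At an unadjusted p under 0.05 stood 1172 genes (6.48%), with 531 higher (2.93%) and 641 lower (3.54%) in GF. The median over all genes was 0.01, which is the base against which the medians of gene lists below are read. Of the 18095 genes, 9349 were higher and 8746 lower in GF, which is the base for counts of direction. Members of a list are not independent of each other, and such counts were not tested.

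Among single-copy genes, Wdfy1, an endosomal adaptor with a FYVE domain (ENSMUSG00000073643, GRCm38 chr1:79702262-79776143, minus strand), had the smallest p. It stood at 35.4, 32.0, 31.8 and 28.2 CPM in CV1 to CV4 and at 65.3, 81.3, 68.5, 74.6 and 72.3 CPM in GF1 to GF5. Each GF library was thus above every CV library, and Wdfy1 rose by 1.18 in log2 (SE 0.0844, adjusted p = 0.000391). Nnt, the transhydrogenase of the inner mitochondrial membrane that makes NADPH (ENSMUSG00000025453, chr13:119335448-119408997, minus strand), had 70.8, 74.0, 76.5 and 76.1 CPM in CV and 161, 144.5, 161.6, 188.9 and 137.5 CPM in GF. All 5 GF libraries were above all 4 CV libraries, and Nnt rose by 1.09 (SE 0.087, adjusted p = 0.000391). Efcab7, which tethers proteins of Hedgehog signalling at the base of the cilium (chr4:99829198-99912788, plus strand), had 5.68, 5.08, 5.97 and 4.89 CPM in CV and 10.7, 11.1, 9.999, 9.81 and 10.6 CPM in GF. It rose by 0.95 (SE 0.111, adjusted p = 0.0036), and the call was lost without CV2 and GF5 (adjusted p = 0.0641).

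Several called genes were neighbours on chromosome 13. Lgals8, the sugar-binding lectin galectin 8 (chr13:12439415-12464944, minus strand), had 66.3, 68.1, 70.8 and 70.5 CPM in CV and 96.1, 96.9, 96.3, 84.0 and 111.9 CPM in GF. It rose by 0.49 (SE 0.0752, adjusted p = 0.028), the smallest change called among named genes, and the call was lost in 8 of 20 alternative analyses, with adjusted p-values up to 0.124. Its neighbour Ero1lb, an oxidase that forms disulphide bonds in the endoplasmic reticulum (chr13:12565874-12611396, plus strand), went the other way: 37.0, 35.9, 42.5 and 42.8 CPM in CV against 24.4, 19.1, 20.1, 20.9 and 21.9 CPM in GF. Ero1lb fell by 0.89 in log2 (SE 0.0887, adjusted p = 0.00166). Gpr137b, a lysosomal membrane protein (chr13:13357620-13394014, minus strand), stood at 8.98, 9.76, 12.2 and 11.8 CPM in CV and at 19.7, 21.9, 22.7, 23.8 and 24.6 CPM in GF. It rose by 1.08 (SE 0.115, adjusted p = 0.00252). Ggps1, which makes geranylgeranyl diphosphate for protein prenylation (chr13:14050659-14063488, minus strand), had 60.9, 66.5, 63.6 and 62.1 CPM in CV and 39.8, 44.6, 45.03, 41.2 and 35.3 CPM in GF. It fell by 0.62 in log2 (SE 0.0759, adjusted p = 0.00506). The genes of this stretch therefore did not share a direction. Also in this stretch, Prl2c5, a placental prolactin family gene (chr13:13182715-13191923, plus strand), was listed at 0, 0, 0.0765 and 0.144 CPM in CV and at 0.751 to 1.65 CPM in GF. It was called higher (adjusted p = 0.0107), and the call was lost without CV3 and without CV2 and GF5.

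**Figure D2:**
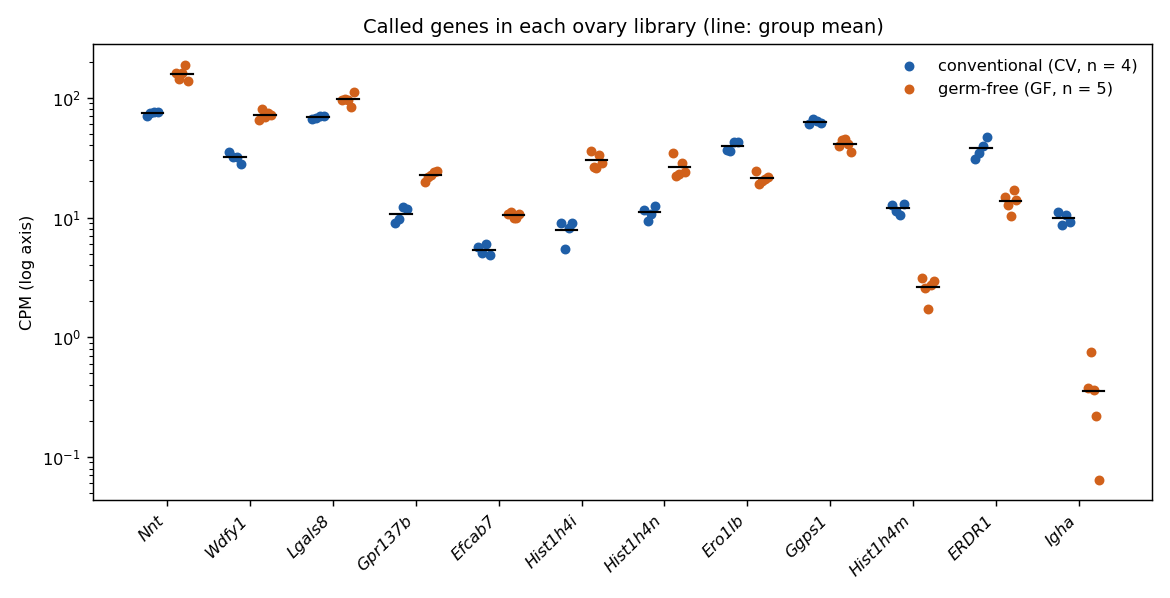
The points give the CPM (log axis) of 12 called genes in each of the 4 CV and 5 GF libraries, and the line is the group mean. In each of the 12 genes the GF points lie entirely above or entirely below the CV points.

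Replication-dependent histone genes, which supply histones during DNA synthesis, gave the largest block of calls. Of 51 in the list 48 were tested, and those with a position all lie on chromosome 13. A rise was called for 4 (Hist1h4i, Hist1h4n, Hist1h2ao, Hist1h2bp) and a fall for 3 (Hist1h4m, Hist1h2bm, Hist1h2bn). The H4 copies encode the same protein in 55 of 55 pairs of 11 genes. Their coding sequences were 92.3 to 100% identical, and 43 pairs shared an identical stretch of at least 100 bases, the length of a read. The first 150 coding bases of a copy that rose and of one that fell are shown because they are so alike. They are from the GENCODE M21 transcripts of GRCm38, 5′ to 3′, with the bases that differ between the 2 in capitals:
Hist1h4i: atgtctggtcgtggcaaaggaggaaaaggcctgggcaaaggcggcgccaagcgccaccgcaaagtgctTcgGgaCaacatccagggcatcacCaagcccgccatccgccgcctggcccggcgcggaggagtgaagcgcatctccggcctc
Hist1h4m: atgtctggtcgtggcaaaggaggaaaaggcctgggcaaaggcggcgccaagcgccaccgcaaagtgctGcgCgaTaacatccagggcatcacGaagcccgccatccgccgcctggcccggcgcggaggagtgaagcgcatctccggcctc

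Those 2 coding sequences differed at 10 of 312 bases, and Hist1h4m and Hist1h4n, which were called in opposite directions, at 0 of 312. Hist1h4i (chr13:22040636-22041362, minus strand) stood at 9.04, 5.49, 8.11 and 9.06 CPM in CV and at 36.3, 26.7, 25.7, 33.4 and 28.6 CPM in GF. Hist1h4n (chr13:21831767-21832196, minus strand) had 11.5, 9.35, 10.8 and 12.6 CPM in CV and 34.9, 22.4, 23.0, 28.3 and 23.9 CPM in GF. Hist1h4m (chr13:21811746-21812147, plus strand) had 12.7, 11.4, 10.5 and 13.01 CPM in CV and 3.13, 2.55, 1.73, 2.73 and 2.97 CPM in GF. Hist1h4i rose by 1.93 (SE 0.165, adjusted p = 0.000556) and Hist1h4n by 1.26 (SE 0.15, adjusted p = 0.00391), while Hist1h4m fell by 2.18 (SE 0.17, adjusted p = 0.000391). How reads that match several copies were counted is not given in the sources used here, so the values of single copies are uncertain.

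Sums over the copies of each histone differed less than single copies did. The 11 H4 copies summed to 560 ± 35 CPM in CV (SD, n = 4) and 605 ± 92.6 CPM in GF (SD, n = 5), with libraries from 519.8 to 604.9 and from 511.2 to 723.7. The 13 H2B copies summed to 335.6 ± 29.8 and 333 ± 55.8 CPM, although Hist1h2bp rose by 2.10 (adjusted p = 0.00205) and Hist1h2bm and Hist1h2bn fell by 1.35 and 1.45 (adjusted p = 0.00355 and 0.0211). Both ranges overlapped, and the sums were not tested. Hist1h2bn went from 41.5 to 56.1 CPM in CV and from 11.9 to 23.4 CPM in GF, and its call was lost in 9 of 20 alternative analyses. H2A copies summed to 130 ± 9.71 and 153 ± 32.7 CPM, with 1 call, Hist1h2ao (4.10, adjusted p = 0.000674), which was at no more than 0.2295 CPM in any CV library. H3 sums were 284.5 ± 24.4 and 311 ± 60.1 CPM and H1 sums 568 ± 66.7 and 615 ± 99.8 CPM, with no call in either. Over the 48 tested members the median log2 difference was 0.19 (0.12 without GF1 and 0.13 without CV2), and 13 were higher and 9 lower at an unadjusted p under 0.05.

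Igha, which encodes the constant part of the heavy chain of immunoglobulin A (ENSMUSG00000095079, chr12:113254830-113260236, minus strand), had the largest fall among genes above 5 CPM in a group. It stood at 11.2, 8.67, 10.6 and 9.13 CPM in CV and at 0.376, 0.751, 0.360, 0.221 and 0.0645 CPM in GF. These levels rest on 562 CV counts and 25 GF counts. It fell by 4.79 in log2 (SE 0.35, adjusted p = 0.000391). The other plasma and B cell genes did not pass the test. Igj, the joining chain of secreted immunoglobulin A and M, had 4.03, 5.89, 3.75 and 4.17 CPM in CV and 0.501, 1.201, 3.09, 0.812 and 2.51 CPM in GF, a difference of -1.46 (SE 0.441, adjusted p = 0.545). Igkc, the kappa light chain, ranged from 5.28 to 10.2 CPM in CV and from 0.877 to 6.98 in GF (-1.32, adjusted p = 0.761), and Ighm, the immunoglobulin M heavy chain, from 10.2 to 37.8 and from 8.71 to 22.1 CPM (-0.16, adjusted p = 0.967). The groups of Igj did not overlap, and those of Igkc and Ighm did. Of 13 listed genes 9 were tested, 8 of them lower, with a median of -0.73, and 1 was called. At an unadjusted p under 0.05, 4 were lower. Without GF3, in which Igkc and Igj were closest to CV, the median was -1.34. It was nearer to 0 without GF1 (-0.53) and without CV2 (-0.57). In a bulk sample, fewer cells of a type and less RNA per cell cannot be told apart.

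The remaining named calls were ERDR1 and genes at low levels or with close copies. ERDR1 (Gm47283 in the annotation, chrY:90784738-90816464, plus strand) is a gene of the region shared by the sex chromosomes. It had 31.0, 34.7, 39.4 and 47.0 CPM in CV and 14.7, 12.6, 10.2, 17.1 and 14.0 CPM in GF, and fell by 1.47 (SE 0.155, adjusted p = 0.00252). It is placed on Y although the libraries are labelled as female, and how reads of the shared region were counted is not given. The level of ERDR1 is therefore uncertain, as for the single histone copies. SLC25A37 (Gm16867 in the annotation, on chromosome 14) had 1.19 to 1.94 CPM in CV and was listed at 0 in 3 of 5 GF libraries, with at most 0.129 CPM (adjusted p = 0.00296). Cntnap5a, a neuronal cell adhesion protein on chromosome 1, had 2.17 to 5.28 CPM in CV and 0.221 to 0.967 CPM in GF (-2.53, adjusted p = 0.0256), and the call was lost in 6 of 20 alternatives. Dynlt1b, a dynein light chain with near-identical copies on chromosome 17, had 3.57 to 4.38 CPM in CV and 7.09 to 11.4 CPM in GF (1.09, adjusted p = 0.0323), and kept its call in 9 of 20. The other 12 called genes carry predicted, clone, pseudogene or small RNA family names. Among them were the largest called rises, of rows named 5S_rRNA (5.85), 7SK (5.59) and SNORA73 (5.53). Their means were 0.0349, 0.0191 and 0.018 CPM in CV and 2.51, 1.26 and 1.21 CPM in GF.

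The uncalled genes nearest to the threshold, taken as the 10 of smallest p with non-overlapping groups and at least 5 CPM, included 4 more histones (Hist1h2bl, Hist1h2bf, Hist1h2bj and Hist1h2bc). Trim9, a neuronal ubiquitin ligase, had 3.39 to 5.97 CPM in CV and 7.88 to 16.8 CPM in GF (1.37, adjusted p = 0.0732). Cxadr, a tight junction adhesion protein, had 77.9, 73.4, 59.9 and 63.7 CPM in CV and 51.4, 47.6, 45.7, 52.8 and 45.1 CPM in GF (-0.50, adjusted p = 0.0736). The aldo-keto reductases Akr1e1 (-0.48, adjusted p = 0.0812) and Akr1c13 (0.66, adjusted p = 0.119) both lie on chromosome 13 and differed in opposite directions. Tenm3, a teneurin of cell contacts, differed by 0.47 (adjusted p = 0.0904), and Arrdc4, an arrestin-like gene induced by glucose, by -0.66 (adjusted p = 0.129). With the replicate number as a block, Hist1h2bl, Trim9, Hist1h2bj, Cxadr and Arrdc4 passed the test (adjusted p = 0.00177, 0.00239, 0.015, 0.0439 and 0.0064). The replicate numbers are not shown to mark real pairs, so calls that need the block are uncertain.

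That blocked analysis, on CV1 to CV4 and GF1 to GF4, called 91 of 17956 genes (0.507%), 34 higher and 57 lower. The same libraries without the block gave 33 calls. The 32 genes above were all among the 91. The 59 further genes were 14 higher and 45 lower. Among the lower, Epcam, an epithelial adhesion protein, fell by 0.44 (adjusted p = 0.0217), and it was the 1 call among the 13 oviduct genes tested with the block, against 0 among the 12 of surface epithelium. The examples here were chosen after their values were seen. More abundant were Ogn, a matrix proteoglycan of stroma (-0.45, from means of 606 CPM in CV and 439 in GF; adjusted p = 0.75 without the block), and Cd24a, a surface sialoglycoprotein (-0.48, from 256 and 186 CPM; adjusted p = 0.874 without the block). The class I genes H2-Q6 and H2-Q7 rose by 0.84 and 0.99 (adjusted p = 0.471 and 0.362 without the block), and share sequence with each other. Without the block Epcam had 74.5, 120.4, 77.7 and 77.0 CPM in CV and 51.7, 83.3, 62.2, 58.7 and 60.9 CPM in GF (-0.46, adjusted p = 0.699).

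No gene of the granulosa, theca, oocyte, egg coat, ovulation or luteal lists was called, with or without the block. The libraries did differ from each other in these genes, within each group. Over the 11636 genes of at least 10 CPM the median within-group SD of log2 CPM was 0.131 and the 95th percentile 0.428, and 89 genes exceeded 1. The GF group was the wider one for 65.4% of these genes, a share that was not tested. A list's score in a library, used below, is the mean over its tested members of log2 CPM less the gene's mean over the 9 libraries.

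**Figure D3:**
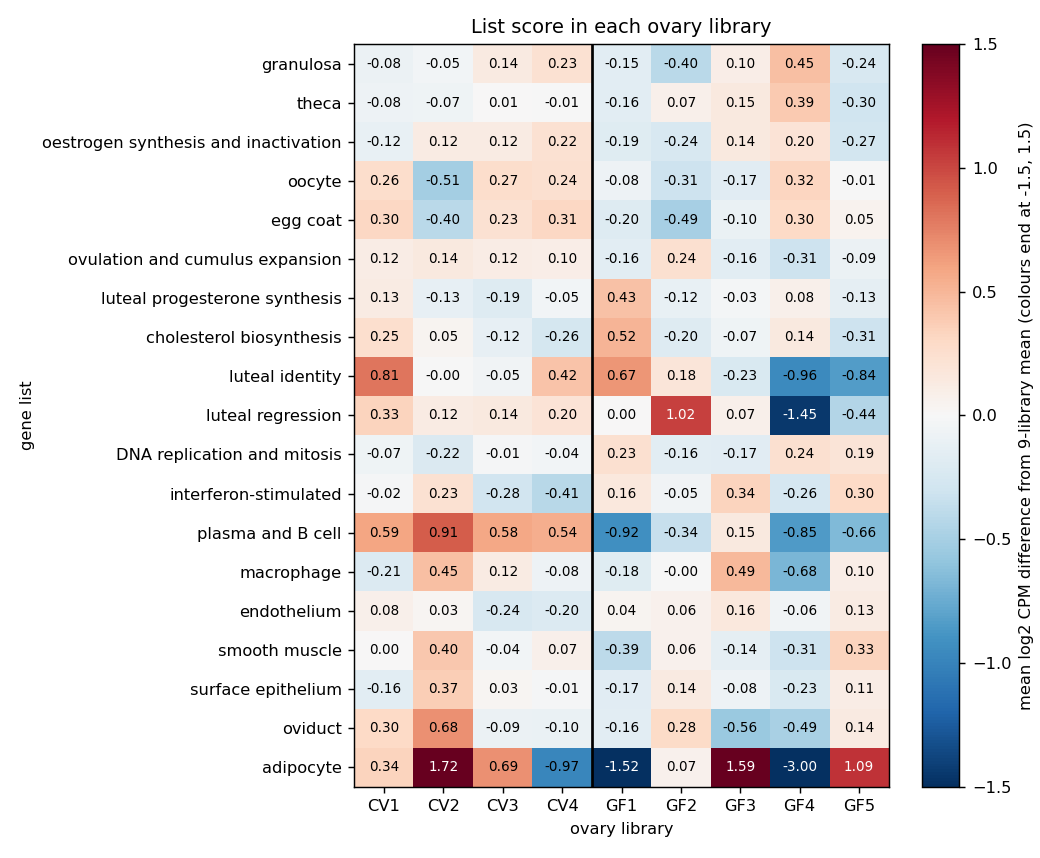
Each cell is the score of a gene list (rows) in an ovary library (columns, CV left and GF right of the line), in log2 units, with colours ending at -1.5 and 1.5. Among the lists drawn, adipocyte and luteal scores differ widely between libraries of the same group: luteal identity runs from 0.67 in GF1 to -0.96 in GF4, and adipocyte from 1.59 in GF3 to -3.00 in GF4.

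Granulosa genes were highest in GF4 (score 0.45) and lowest in GF2 (-0.40). Of 20 tested, 7 were higher and 13 lower in GF, with a median of -0.07 that was -0.01 without GF2 and -0.17 without GF4. Cyp19a1, the aromatase that makes oestradiol, had 70.0, 86.3, 69.5 and 124.5 CPM in CV and 23.7, 44.9, 81.0, 146.3 and 24.0 CPM in GF. The highest and the lowest level were both in GF libraries, GF4 and GF1, and the groups differed by -0.46 (adjusted p = 0.924). Inhba, the activin subunit, was likewise low in GF1 and GF5 (70.8 and 69.4 CPM) and high in GF4 (228 CPM), against 121.5 to 218 CPM in CV. Inha, shared by the inhibins, ranged from 789.8 to 1439 CPM in CV and from 812 to 1637 CPM in GF, and Fshr, the receptor for follicle-stimulating hormone, from 21.1 to 37.2 and from 15.0 to 36.1 CPM. Amh, made by growing follicles, had 28.9 to 43.8 CPM in CV and 21.9 to 53.2 CPM in GF, and Foxl2, a granulosa identity factor, 22.3 to 31.6 and 21.8 to 30.8 CPM. All of these ranges overlapped. The 6 tested genes of oestrogen synthesis and inactivation had a median of -0.08 (2 higher, 4 lower, 0 called), and the 22 of activin, inhibin and BMP signalling -0.05 (9 higher, 13 lower, 0 called). Single libraries moved these medians too: the first was -0.03 without GF2 and -0.12 without CV1 or GF3, and the second -0.03 without CV2 or CV4. In the second list Id1, a target of BMP signals, had groups that did not overlap (27.8 to 30.2 CPM in CV, 20.1 to 27.7 in GF) at an adjusted p of 0.602.

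Theca genes spread far more in GF than in CV libraries, with an SD of the score of 0.269 against 0.0435 (not tested). Most of this was Cyp17a1, the enzyme that makes androgens. It had 277, 428, 363 and 279.5 CPM in CV and 169.5, 354.6, 408.9, 1182 and 16.1 CPM in GF. GF4 was thus at more than any CV library and GF5 at less, and the group difference was 0.34 with an SE of 0.924 (adjusted p = 0.967). GF4 was also highest in Insl3, the insulin-like peptide of theca and Leydig cells: 13.3 CPM there, 4.26 to 6.68 CPM in the other GF libraries and 2.85 to 5.17 CPM in CV. Lhcgr, the luteinising hormone receptor of theca, granulosa and luteal cells, was lowest in GF5 (49.6 CPM) and ranged from 123 to 429 CPM in the other GF and from 257 to 407 CPM in the CV libraries. Of 12 theca genes 9 were higher in GF, with a median of 0.07 (0.00 without GF4, 0.16 without GF1 and 0.13 without CV3 or GF5), and 3 were higher at an unadjusted p under 0.05, among them Insl3 and Mgarp. Mgarp, a mitochondrial protein of steroid-making cells, had 270, 266, 275 and 310 CPM in CV and 476, 313, 389, 350 and 576 CPM in GF. Its groups did not overlap, and it differed by 0.59 (adjusted p = 0.508).

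Oocyte genes had their lowest score in CV2. It was -0.51 in CV2, against 0.24 to 0.27 in the other CV libraries, and ran from -0.31 in GF2 to 0.32 in GF4. Not all members kept to this order: Kit, a receptor that theca cells also carry, had 70.7 CPM in CV2 and 55.7 in CV1, and Uchl1, a deubiquitinase, was highest in GF2 (100.9 CPM, against at most 48.4 CPM elsewhere). Gdf9, a growth factor that oocytes send to granulosa cells, had 59.0, 31.3, 61.0 and 57.6 CPM in CV and 39.6, 27.6, 40.0, 52.3 and 49.6 CPM in GF. Bmp15, its partner, had 40.3, 21.8, 48.4 and 47.5 CPM in CV and 30.4, 24.6, 28.3, 41.0 and 32.7 CPM in GF. In both genes 1 CV library, CV2, lay inside or below the GF range and the other 3 near or above its top. The differences were -0.32 and -0.33 (adjusted p = 0.868 and 0.863). CV2 also had the highest adipocyte, oviduct and surface epithelium scores (1.72, 0.68 and 0.37), and their part in its low oocyte values was not tested. Nlrp5 and Ooep encode parts of the maternal complex under the oocyte surface: Nlrp5 ranged from 31.9 to 55.7 CPM in CV and from 36.2 to 57.4 in GF, and Ooep from 11.04 to 20.3 and from 10.96 to 19.9 CPM. Of 26 tested oocyte genes 22 were lower in GF, with a median of -0.19, none called and none at an unadjusted p under 0.05. Without CV2 the median was -0.36 and without CV1, CV3, CV4 or GF2 between -0.12 and -0.10. The 4 egg coat genes were all lower, with a median of -0.19 (-0.33 without CV2, -0.30 without GF4 and -0.11 without GF2). Zp2 had 58.1, 36.3, 53.5 and 50.8 CPM in CV and 38.0, 32.1, 36.7, 52.5 and 44.2 CPM in GF (-0.29, adjusted p = 0.81), and Zp3 18.6 to 27.8 and 16.7 to 27.7 CPM.

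Genes of ovulation and cumulus expansion were at unlike levels. Ptgs2, Tnfaip6, Has2, Ptx3, Areg, Ereg, Btc and Edn2 were low, at no more than 5.63 CPM in any of the 9 libraries. Others were more abundant, among them Vcan (227 to 540 CPM), Plat (130 to 254 CPM), Runx1 (41.2 to 61.5 CPM), Pgr and Adamts1. Ptgs2, the prostaglandin synthase of the ovulating follicle, had 1.91, 2.78, 4.28 and 4.46 CPM in CV and 2.00, 2.25, 3.67, 1.62 and 2.00 CPM in GF (-0.54, adjusted p = 0.81). Tnfaip6, which cross-links the cumulus matrix, had 1.25 to 1.56 CPM in CV and 0.885 to 1.23 CPM in 4 GF libraries, and 5.63 CPM in GF2, so that its log2 difference was 0.49 with GF2 and -0.41 without it. Pgr, the progesterone receptor, had 69.5, 136.9, 74.7 and 77.2 CPM in CV and 16.9, 112.8, 52.9, 34.1 and 34.1 CPM in GF. Only GF2 reached the CV range, and the difference of -0.84 did not pass (SE 0.514, adjusted p = 0.825). Adamts1, a protease of the ovulating follicle, ranged from 66.1 to 84.5 CPM in CV and from 57.6 to 96.8 in GF. Edn2, an endothelin of the follicle at rupture, was the 1 member with an unadjusted p under 0.05 (1.42 to 3.30 CPM in CV, 0.387 to 1.73 in GF, adjusted p = 0.642). Of 18 listed genes 15 were tested, 7 higher and 8 lower, with a median of -0.05 that ran from -0.13 without GF3 to 0.00 without CV4 or GF4. Of 12 atresia and apoptosis genes 11 were tested, 6 higher and 5 lower, with a median of 0.05 (-0.09 without GF2) and none called; Cdkn1a, a cell cycle inhibitor, was highest in GF2 (25.7 CPM, against 4.96 to 9.70 CPM elsewhere).

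Some luteal identity genes varied more between libraries than most follicle genes did. The list's median within-group SD was 0.569 in log2 CPM, against 0.325 for granulosa, 0.331 for theca and 0.373 for oocyte genes (not tested). That median was the SD of Avpr1a, a gene at 0.590 to 2.13 CPM. Timp3, Cd9, Lhx9, Parm1 and Prlr had SDs of 0.157, 0.162, 0.235, 0.319 and 0.415. Lhcgr, Runx2, Sfrp4, Hsd17b7 and Ptgfr had SDs of 0.991 to 1.62. Hsd17b7, a luteal enzyme of steroid and cholesterol synthesis, had 615, 55.3, 51.8 and 170 CPM in CV and 355, 48.9, 44.2, 48.9 and 19.7 CPM in GF. It was high in CV1 and GF1, intermediate in CV4 and low in the other 6, in either group. Runx2, a luteal transcription factor, followed with 94.5 and 149 CPM in CV1 and GF1, 40.0 in CV4, 41.4 in GF2 and 5.68 to 16.9 CPM in the rest. Star, which carries cholesterol into the mitochondrion, had 458, 176, 173 and 239 CPM in CV and 481, 345, 158, 237 and 209 CPM in GF. Again CV1 and GF1 were highest, and the groups differed by 0.13 (SE 0.411, adjusted p = 0.973). Prlr, the prolactin receptor that keeps the corpus luteum alive, was highest in GF1 (1060 CPM) and CV1 (972 CPM) and between 484 and 721 CPM elsewhere.

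Sfrp4, a secreted Wnt antagonist of the corpus luteum, had another order: 727, 329, 322 and 733 CPM in CV and 405, 796, 208, 32.9 and 43.3 CPM in GF. Ptgfr, the receptor through which prostaglandin F ends luteal life, had 347, 98.4, 121.5 and 277 CPM in CV and 224, 316, 64.0, 11.7 and 26.9 CPM in GF. GF4 and GF5 were the lowest of all in both genes. Akr1c18, the enzyme that breaks down progesterone in the regressing corpus luteum, had 48.7, 8.60, 19.0 and 46.9 CPM in CV and 6.76, 487.8, 15.0, 0.148 and 2.39 CPM in GF. A single library, GF2, held nearly all of its GF level: the log2 difference was 1.73 (SE 1.79, adjusted p = 0.906) and was -2.34 without GF2. The 11 luteal identity genes had a median of -0.13 (3 higher, 8 lower; -0.38 without GF1, -0.21 without CV3 and -0.04 without CV1), with scores from -0.05 to 0.81 in the CV and from -0.96 to 0.67 in the GF libraries. Of 11 luteal regression genes 10 were tested (7 higher, 3 lower, median 0.12, and -0.17 without GF2), with scores of 1.02 in GF2, -1.45 in GF4 and 0.12 to 0.33 in CV.

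**Figure D4:**
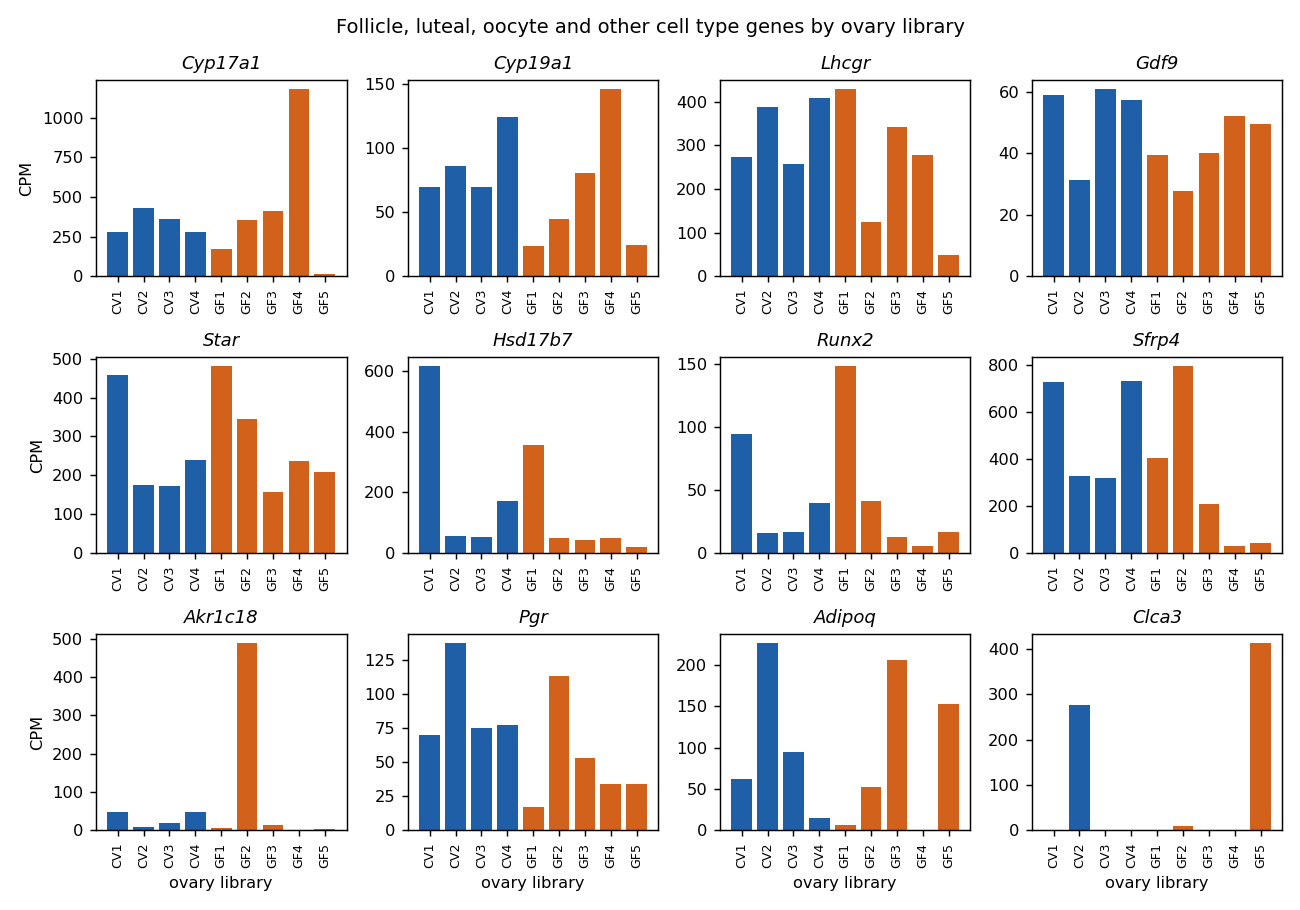
Bars give the CPM of 12 genes in each library, CV in blue and GF in orange, with a separate axis from 0 for each gene. Hsd17b7, Runx2 and Star are highest in CV1 and GF1, Akr1c18 in GF2 (487.8 CPM), Cyp17a1 in GF4 (1182 CPM), and Clca3 in CV2 and GF5.

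Genes of progesterone synthesis were mostly abundant and steadier, with a median within-group SD of 0.2715 in log2 CPM. Star and Scarb1 of this list were less steady, with SDs of 0.641 and 0.492. Cyp11a1, which cuts the cholesterol side chain, had 3358, 2432, 2399 and 3064 CPM in CV and 4254, 2823, 3087, 3015 and 2556 CPM in GF (0.16, adjusted p = 0.901). Hsd3b1 had 3964, 3469, 3971 and 3404 CPM in CV and 5891, 3246, 3826, 4692 and 3575 CPM in GF (0.20, adjusted p = 0.881). GF1 was the highest in both genes, and otherwise the groups overlapped. Of 11 tested members 10 were higher in GF, with a median of 0.13 (0.02 without GF1 and 0.22 without GF5), and the score of GF1 was 0.43, against -0.19 to 0.13 in the other 8 libraries. Fdxr, which passes electrons to the ferredoxin that serves Cyp11a1, was the 1 member with an unadjusted p under 0.05 (0.41, adjusted p = 0.724). Cholesterol biosynthesis genes also peaked in GF1 (score 0.52) and CV1 (0.25): Hmgcs1, the synthase at the pathway's start, had 463 CPM in CV1, 629 in GF1 and 246 to 332 CPM elsewhere. Of 18 tested 15 were higher in GF, with a median of 0.08 that was -0.11 without GF1 and -0.03 without CV4. The 12 hormone receptor genes had a median of -0.08 (5 higher, 7 lower, 0 called; -0.01 without CV1 and 0.01 without CV2).

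**Figure D5:**
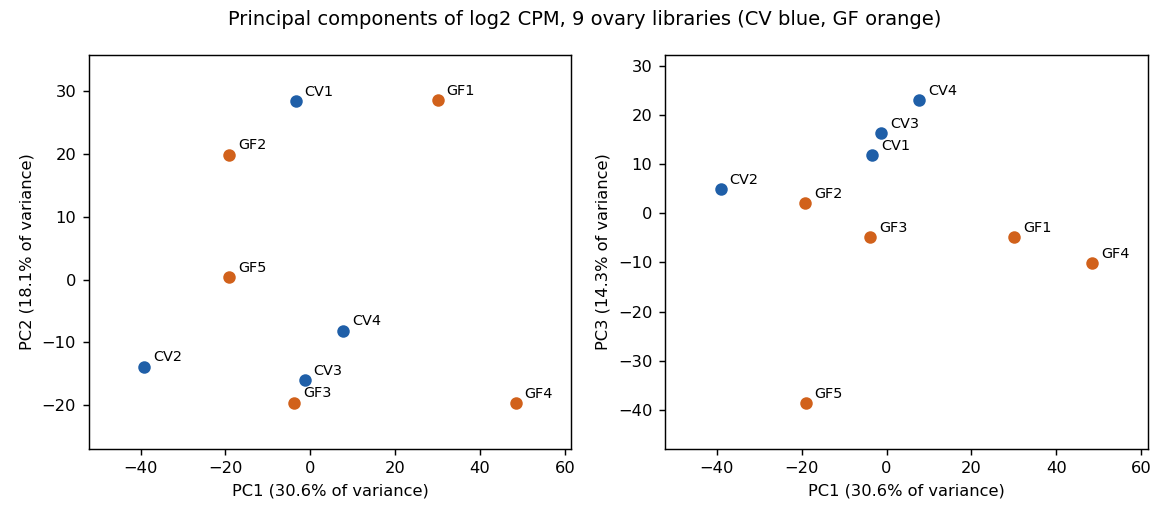
The first 3 principal components of log2 CPM of the 18095 tested genes place each ovary library, CV in blue and GF in orange. GF4 (48.4) and GF1 (30.0) lie at one end of the first component and CV2 (-39.1) at the other, with GF2 and GF5 at -19.2 and -19.1.

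Adipocyte genes differed more between libraries than any list of ovarian cells, with a median within-group SD of 1.72. Adipoq, the fat cell hormone adiponectin, had 62.1, 226, 94.8 and 14.6 CPM in CV and 6.89, 52.9, 206, 0.295 and 152 CPM in GF. Cfd, the fat cell protease adipsin, had 251, 785, 268 and 66.8 CPM in CV and 14.0, 117, 598, 1.84 and 397 CPM in GF. Both were highest in CV2 and GF3 and lowest in GF4. The 12 tested adipocyte genes summed to between 286 and 2323 CPM in CV and between 156 and 2055 CPM in GF, with a median difference of -0.20 that turned to 0.43 without CV2, 0.06 without GF1 and 0.07 without GF4; Ucp1, the brown fat marker, had 2 counts in all. With the adipocyte score as a covariate, an analysis added after seeing the data, 40 genes were called, 31 of them among the 32. Its part in the other differences between libraries was not tested.

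Mucus and secretory epithelium genes marked CV2 and GF5. Clca3, a secreted goblet cell protein, had 276 CPM in CV2, 413 CPM in GF5, 9.46 CPM in GF2 and at most 1.32 CPM in the rest. Pigr, which carries immunoglobulin A across epithelia, had 40.4 CPM in CV2 and 62.3 CPM in GF5, against 7.20 to 10.4 CPM in the other CV and 1.11 to 15.6 CPM in the other GF libraries. Fcgbp, a mucin-like protein, had 87.5 CPM in CV2, 91.7 in GF5, 37.8 in GF2 and 4.06 to 15.3 CPM elsewhere, and Muc4, a membrane mucin, had 60.6, 26.9 and 12.5 CPM in the same 3 libraries and at most 1.72 CPM elsewhere. Fcgbp was called lower with the block, which leaves out GF5 (-0.97, adjusted p = 0.0463), and not without it (-0.00, adjusted p = 0.9998). Without CV2 and GF5, 24 genes were called, 13 higher and 11 lower, of which 23 were among the 32. Of the oviduct list 14 of 14 were lower in GF, with a median of -0.21 (-0.08 without GF5) and 2 at an unadjusted p under 0.05 (Pax8 and Epcam); its summed level ran from 3208 to 3982 CPM in CV and from 2260 to 4297 CPM in GF, and Ovgp1 alone from 2529 to 3322 and from 1732 to 3704 CPM. The 12 surface epithelium genes had a median of -0.17 (5 higher, 7 lower), which was -0.00 without CV2, and Krt19, an epithelial keratin, had 195.6 CPM in CV2, 111 to 123 CPM in the other CV and 77.6 to 137 CPM in the GF libraries. Bhmt, a methyltransferase, had another order, with 155 CPM in GF1, 25.9 in CV1, 6.18 in CV4 and at most 1.73 CPM elsewhere. Hsd17b7 was also highest in GF1, CV1 and CV4.

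Supporting and blood-borne cells showed small differences with no call outside Igha. Endothelial genes were narrowly spread and 11 of 12 were higher in GF (median 0.16, 0.10 without CV3; 3 at an unadjusted p under 0.05). Kdr, the main receptor of vascular growth factor, had 90.3, 98.5, 86.1 and 93.2 CPM in CV and 107, 109.9, 108, 99.8 and 96.0 CPM in GF (0.18, adjusted p = 0.642). Smooth muscle genes were lower in 9 of 10 (median -0.21, and -0.09 without CV2); Acta2, smooth muscle actin, ranged from 848 to 1163 CPM in CV and from 715 to 1002 CPM in GF. Macrophage genes had a median of -0.08 (3 of 13 higher; 0.03 without CV2, 0.04 without GF4 and -0.25 without GF3), with Csf1r, their growth factor receptor, at 52.0 to 71.1 CPM in CV and 45.7 to 79.6 in GF. Of 12 T and NK cell genes 5 were tested and all 5 were higher (median 0.43, 0.73 without CV2 and 0.28 without CV3) at levels under 4 CPM, and 7 were too low to test. Of 7 red blood cell genes 5 were tested, all lower (median -0.26, but 0.43 without CV3), with the highest Hbb-b1 level in CV3 (129 CPM).

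Interferon-stimulated genes were higher in GF in 18 of 22 (median 0.23, 0.36 without CV2 and 0.16 without CV4), 6 of them at an unadjusted p under 0.05 and none called. Irgm2, a GTPase of cell-autonomous defence, had 49.2, 54.9, 46.7 and 42.7 CPM in CV and 65.1, 54.7, 88.3, 60.9 and 62.7 CPM in GF (0.46, adjusted p = 0.508). Igtp, a GTPase of the same family, did not overlap between groups (13.7 to 16.2 CPM in CV, 18.1 to 29.6 in GF), and differed by 0.45 (adjusted p = 0.626). GF3 was the highest library for both. The 4 members that were lower in GF were Isg15 (-0.33), Oas1a (-0.24), Mx1 (-0.23) and Bst2 (-0.07), while Rsad2 (0.40), Ifit3 (0.39) and Ifit1 (0.38) were among the higher ones, none of them past the test. DNA replication and mitosis genes were higher in 19 of 20 (median 0.17), with 3 at an unadjusted p under 0.05 and none called. Mcm5, a subunit of the replicative helicase, had 29.7, 28.3, 31.0 and 34.8 CPM in CV and 39.7, 34.8, 34.96, 45.7 and 43.5 CPM in GF. Its groups did not overlap, at a difference of 0.36 (adjusted p = 0.469). The score of this list was highest in GF4, GF1 and GF5 (0.24, 0.23 and 0.19), and lay between -0.22 and -0.01 in the other 6 libraries, which include all CV libraries.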

How the data were processed

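Total RNA of ovaries was sequenced after ribosomal RNA depletion with a stranded kit and paired reads of 100 bases, per the labels' protocols. The authors deposited raw gene counts in whole numbers. STAR 2.4.0i and mm10 are the tool and build listed per the submitters' processing notes. What counted the reads, on which annotation and with what strand setting is not given in the sources used here, so reads of overlapping genes, antisense genes and near-identical copies may be split or shared. Positions are from GENCODE M21 of GRCm38, the assembly behind mm10, joined by gene identifier.

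The 9 ovary libraries were analysed alone, from the deposited counts, with edgeR 4.0.16 in R 4.3.3: the expression filter (filterByExpr), TMM factors (0.9765 to 1.014), robust quasi-likelihood fit and two-sided F test, Benjamini-Hochberg adjustment over 18095 genes, called at an adjusted p under 0.05. Log2 CPM for SDs, scores and principal components used a prior count of 2. Gene lists, 26 in all, came from textbook knowledge; 1 of their 377 symbols, Sts, was not matched. The lists, the genes and the tests were chosen with earlier results of these data known. Named were called genes of at least 1 CPM with a non-predicted symbol; the 10 uncalled genes of smallest p with at least 5 CPM and non-overlapping groups; 35 fixed genes; the 3 most abundant of each list; the 20 most varying genes of at least 10 CPM; and the 10 highest per exon kilobase. Other names were chosen after their values were seen. A few genes counted in the fits and lists are not reported here by name. H4 coding sequences are the longest open reading frames of the GENCODE transcripts.

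Replicate pairs differed beyond sampling noise (chi-square over genes divided by its degrees of freedom, 6.01 to 34.3), more than repeat reads of 1 library would. Whether libraries share an animal, an ovary or an RNA cannot be told from this. The labels number libraries within groups and do not say what a number marks. Deviations from the group means correlated over genes at 0.367, 0.246, 0.2 and 0.36 for the same-numbered libraries 1 to 4, all over 0.1, which is the rule used here for fitting the number as a block, without GF5, which has no partner. Of 16 pairs with unlike numbers, CV1 with GF2 (0.107), CV2 with GF3 (0.226), CV2 with GF5 (0.383), CV3 with GF4 (0.238) and CV4 with GF1 (0.163) were over 0.1 as well, so the numbers are not shown to be real pairs.

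Alternatives were other scaling factors, no filter, DESeq2 1.42.0, limma-voom (limma 3.58.1), the block, luteal and theca scores as covariates, each library left out, and, added after seeing the data, the adipocyte score as a covariate, the partnered libraries without the block, and leaving out CV2 and GF5. The fitting code was tested on simulated data. Depth limits low genes most, and intervals cover these libraries only.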

Additional observations from a re-analysis of the deposited data

Results flagged for a closer look

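A library was picked out where it lay far from the others of its group by Dixon's test at the 95% level. Chance flags about 1 in 20 independent groups, and 30 of 338 groups of values were picked out here, 18 of them for CV2. The groups included the 20 genes named for the largest spread in these same libraries, and list scores that share genes with them. The number of flags therefore cannot be set against the chance rate.

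In CV2 the oocyte genes were low: Gdf9 was at 31.3 CPM (57.6 to 61.0 in the other CV libraries), Nlrp14 at 45.7 (85.5 to 86.4) and the egg coat gene Zp3 at 18.6 (26.5 to 27.8), with scores of -0.51 for the oocyte and -0.40 for the egg coat list. Top2a, a gene of dividing cells, was also low there, at 162 CPM (195 to 197). Epithelial genes were high in CV2: Krt19 at 195.6, Krt8 at 185.1, Epcam at 120.4, Clca3 at 276.3, Muc4 at 60.6, Pigr at 40.4 and Fcgbp at 87.5 CPM. So were the hormone receptors Esr1 at 411.3 and Pgr at 136.9 CPM, the macrophage receptor Csf1r at 71.1 CPM, Ighm at 37.8 CPM, and the plasma and B cell score at 0.91. GF5 stood out in the same epithelial direction, with Clca3 at 412.9 and Pigr at 62.3 CPM. Which tissue gave these RNAs was not tested.

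Single GF libraries stood out from the other GF libraries, among others in steroid and luteal genes. GF2 had Akr1c18 at 487.8 CPM (at most 15.0 in the other GF libraries), Onecut2 at 72.5 (at most 6.11) and Tnfaip6 at 5.63 (at most 1.23). GF1 had Prlr at 1060 CPM (484 to 588), Hmgcs1 at 628.6 (270.5 to 332) and Bhmt at 155.1 (at most 1.73). GF4 had Insl3 at 13.3 CPM (4.26 to 6.68). No CV library reached these flagged levels, but some were above the other GF libraries. CV1 had Prlr at 972, Hmgcs1 at 463 and Bhmt at 25.9 CPM, and Onecut2 had 14.1 to 40.6 CPM in CV. Among CV libraries, Wisp2, a matricellular protein gene, was at 51.9 CPM in CV1 (5.22 to 13.1), Fdx1 at 344.7 in CV3 (372.5 to 377.9) and Hist1h2bm at 26.8 in CV4 (22.1 to 22.6).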

How the results depend on the processing

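The number of called genes moved most under DESeq2 and under the block. DESeq2, with its own filter and 31181 genes, called 90, 43 higher and 47 lower, against 43 by edgeR without a filter; what else raised it was not tested. The replicate block called 91, 34 higher and 57 lower, against 33 in the same 8 libraries without it. Both included all 32. Without CV2 and GF5, 13 genes were higher. Leaving out 1 library gave 25 to 33 calls (15 to 21 higher, 10 to 13 lower), fewest without CV3 or CV4. Other scaling gave 32 and limma-voom 30 calls. The block changed no call in the follicle, oocyte or luteal lists; it added 1 oviduct gene, Epcam, and 6 histones.

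No called gene among the 144 named changed direction in the alternatives run. Of the uncalled, Akr1c18 went from 1.73 to -2.34 without GF2 and -1.79 with limma-voom, Bhmt to -2.68 without GF1 and -1.61 with the luteal covariate, Muc4 to 3.31 without CV2 and 2.13 without CV2 and GF5, and Tnfaip6 to -0.41 without GF2. Of 6 named calls that were lost in places, Lgals8, Dynlt1b and Hist1h2bn were lost most often. List medians changed sign in some alternatives for adipocyte (-0.72 to 0.43), red blood cell (-0.57 to 0.43), luteal regression (-0.17 to 0.25), cholesterol biosynthesis (-0.13 to 0.22), macrophage (-0.25 to 0.04), atresia (-0.09 to 0.07), luteal progesterone synthesis (-0.03 to 0.22), ovulation (-0.13 to 0.00), hormone receptor (-0.12 to 0.01) and theca (-0.00 to 0.16) genes, and kept it in the other 15, although that of surface epithelium was -0.00 without CV2. Depth limits genes at a few counts per library, such as Prl2c5, SLC25A37 and the T cell genes.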
